A study of Homo sapiens with 12 samples.

Results

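The 10 genes described here encode the nuclear end of the Hippo pathway and its best known outputs: the co-activators YAP1 and WWTR1 (the gene of TAZ), the DNA-binding factors TEAD1, TEAD2, TEAD3 and TEAD4, and the target genes CTGF, CYR61, ANKRD1 and AMOTL2. They were chosen by symbol, and all 10 were found, each on its own line, among 58365 gene entries (56593 distinct symbols) in a table of FPKM, fragment counts divided by the length of the transcript and by the size of the library. RNA-seq was performed on 12 libraries, 3 in each of 4 populations, to follow gene expression during blood cell differentiation. The populations were undifferentiated H1 cells, an established human embryonic stem cell line, and cells sorted from H1 cultures as APLNR+ (apelin receptor, day 2), CD31+CD34+ (day 5) and CD43+ (day 8). Differentiation was induced in a custom mTeSR1 medium with activin A and BMP4, replaced after the mesoderm stage by VEGF and bFGF. No population carried a genetic change, all come from the single H1 line, and the methods speak of independent experiments in general without saying how the 3 libraries of a group were obtained, so p values measure the spread between these libraries, which may be technical.

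The Hippo pathway is a kinase cascade in which MST kinases (STK3 and STK4) activate LATS1 and LATS2, which phosphorylate YAP and TAZ and keep them in the cytoplasm. Unphosphorylated YAP and TAZ enter the nucleus, where they bind no DNA themselves but act through the TEAD factors, and the pathway is known for its response to cell contact, shape and tension. CTGF and CYR61 encode secreted matrix proteins, ANKRD1 a nuclear and sarcomeric ankyrin repeat protein and AMOTL2 a junctional angiomotin that itself binds YAP, and all are commonly read as targets of YAP and TEAD. RNA levels carry no information on where the YAP protein is or how it is phosphorylated.

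The sorted populations carried their defining markers. Summed FPKM of 5 mesoderm markers rose from 0.814 to 0.938 in H1 libraries to between 525 and 571 in APLNR+ libraries. The sum of 5 endothelial markers lay between 427 and 588 in CD31+CD34+ libraries, with all 5 detected at a mean of at least 1 FPKM. That of 5 blood markers lay between 627 and 758 in CD43+ libraries, with 4 of 5 detected at this level. Most of it was HBE1, at 482 to 564 FPKM, while SPN, GATA1 and RUNX1 had means of 75.5, 56.0 and 37.9 FPKM. PTPRC, the marker not detected, was at most 0.521 FPKM in a CD43+ library. Markers of other cells were also present. The mesoderm sum was still 388 to 437 in CD31+CD34+ and 22.8 to 27.1 in CD43+ libraries, carried mostly by APLNR. Means of APLNR were 383 FPKM in APLNR+ and 403 in CD31+CD34+ cells. Between the same populations the other mesoderm markers were far lower: MIXL1 went from 71.3 to 1.10 FPKM and EOMES from 56.5 to 4.14. MESP1 went from 26.2 to 1.08 FPKM and T from 4.44 to 1.06. The sum of 5 pluripotency markers was still 559 to 640 in APLNR+, 297 to 374 in CD31+CD34+ and 146 to 172 in CD43+ libraries, against 1791 to 1879 in H1. LIN28A was the largest part in CD31+CD34+ and CD43+ cells, with means of 217 and 119 FPKM. SOX2 had a mean of 43.0 FPKM in H1 and of 0.269, 0.0327 and 0.0609 in APLNR+, CD31+CD34+ and CD43+ cells. NANOG had means of 48.6, 9.32, 4.51 and 1.44 FPKM from H1 to CD43+ cells. The sum of 7 stromal markers ran from 32.0 to 38.3 in H1 and from 127 to 146 in APLNR+ libraries. It ran from 350 to 396 in CD31+CD34+ and from 134 to 153 in CD43+ libraries. COL1A2 was its largest part in every group, with a mean of 251 FPKM in CD31+CD34+ cells. From APLNR+ to CD31+CD34+ cells the means of COL1A1, COL1A2, COL3A1 and PDGFRB were higher. Those of PDGFRA (18.8 to 4.24 FPKM) and LUM (2.69 to 0.585 FPKM) were lower. DCN was at 0 in H1 and had means of at most 0.0726 FPKM in the other groups. The part of stromal cells in the results below was not tested. Endothelial markers still summed to between 236 and 317 in CD43+ libraries. In bulk samples, fewer cells of a type and less RNA per cell cannot be told apart. Absolute depth is unknown, and relative depth, read from the spacing of the lowest values, ranged from 0.553 to 1.27, with replicate 1 the shallowest library of every group. Small RNA and mitochondrial genes held from 10.6% to 66.3% of the summed FPKM. That sum was not fixed: it was 567793 in the library with the lowest share, CD31+CD34+ replicate 2. It was 1564450 in the library with the highest, APLNR+ replicate 2. The share alone thus does not give the scaling of the other genes between libraries. This share was 57.0% to 58.7% in H1 and 15.6% to 20.2% in CD43+ libraries, so it differed between these populations. It ran from 27.6% to 66.3% within APLNR+ and from 10.6% to 57.3% within CD31+CD34+ libraries. None of the 10 genes was listed at 0 in any library.

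YAP1, the main co-activator, was measured at 25.4, 33.9 and 32.1 FPKM in H1 replicates 1 to 3, at 36.3, 44.6 and 45.8 in APLNR+, at 18.9, 25.0 and 23.9 in CD31+CD34+ and at 4.46, 5.14 and 5.61 in CD43+ libraries. Every APLNR+ library was above every H1 library, and the CD43+ libraries lay far below all others. Changes were tested with limma on log2(FPKM + 1), a scale that understates changes of low genes, and a gene was called at a change of 2-fold or more with an adjusted p under 0.05. The higher level of YAP1 in APLNR+ than in H1 cells, 0.46 ± 0.14 (log2, SE; limma adjusted p 0.0149), and the lower one in CD31+CD34+ cells, -0.88 ± 0.14 (limma adjusted p 0.000139), were both under the 2-fold minimum. Its fall from CD31+CD34+ to CD43+ cells was called, with means of 22.6 ± 3.23 and 5.07 ± 0.581 FPKM (SD, n = 3), a 4.46-fold lower level and a log2 change of -1.96 ± 0.14 (limma adjusted p 2.76e-07). Replicate 1, the shallowest library, had the lowest YAP1 level in all 4 groups.

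WWTR1 was low throughout and moved on another course. It was measured at 1.68, 1.33 and 1.78 FPKM in H1, 3.80, 4.62 and 3.62 in APLNR+, 4.12, 6.25 and 6.15 in CD31+CD34+ and 1.87, 2.71 and 1.94 in CD43+ libraries. H1 libraries were the lowest, and the APLNR+ and CD31+CD34+ libraries overlapped. Its mean was 2.51-fold higher in APLNR+ than in H1 cells, but the log2 change of 0.95 ± 0.16 (limma adjusted p 0.000244) stayed under the minimum. It was called, at changes from 1.00 to 1.28, in 5 of the alternative settings, among them the fit without APLNR+ replicate 3. Between H1 and CD31+CD34+ cells the rise was called, at 1.31 ± 0.16 (limma adjusted p 7.04e-06). WWTR1 fell from CD31+CD34+ to CD43+ cells by 1.03 on the log2 scale (SE 0.16, limma adjusted p 0.000143), a call that rests close to the threshold and was lost, with changes from -0.98 to -0.94, without CD31+CD34+ replicate 2 or 3 or CD43+ replicate 1 or 3. FPKM is scaled per length, so levels of both co-activators can be set against each other within a library. The ratio of YAP1 to WWTR1 levels was lower at each later stage, going from 19.5 ± 5.38 for H1 to 10.6 ± 1.76 for APLNR+, 4.16 ± 0.379 for CD31+CD34+ and 2.39 ± 0.502 for CD43+ libraries (SD, n = 3), and the libraries of neighbouring stages did not overlap. This ratio needs no scaling between libraries.

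The 4 TEAD genes encode factors with a closely related DNA-binding domain, and they did not follow one course. TEAD1 stood at 14.1, 20.2 and 20.8 FPKM in H1 libraries, 66.8, 90.0 and 86.0 in APLNR+, 14.1, 18.6 and 22.8 in CD31+CD34+ and 5.39, 7.40 and 4.30 in CD43+ libraries. APLNR+ libraries were apart from all others, while H1 and CD31+CD34+ libraries overlapped. TEAD1 rose 4.40-fold into APLNR+ cells (log2 change 2.09 ± 0.21, limma adjusted p 4.67e-06), fell by the same log2 amount into CD31+CD34+ cells (-2.09 ± 0.21, limma adjusted p 2.65e-06) and fell again into CD43+ cells (-1.54 ± 0.21, limma adjusted p 6.93e-05). CD31+CD34+ cells differed from H1 cells by a TEAD1 log2 change of 0.00 ± 0.21 (limma adjusted p 0.996).

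TEAD4 was lowest where TEAD1 was highest among the first 3 populations. Its levels were 29.3, 31.7 and 30.3 FPKM in H1, 20.3, 23.6 and 22.8 in APLNR+, 47.4, 54.1 and 49.9 in CD31+CD34+ and 17.6, 24.7 and 17.7 in CD43+ libraries. All APLNR+ libraries were below H1, all CD31+CD34+ libraries were above the others, and CD43+ libraries overlapped those of APLNR+ cells. The lower level in APLNR+ cells was under the 2-fold minimum (log2 change -0.44 ± 0.12, limma adjusted p 0.00892). TEAD4 then rose 2.27-fold into CD31+CD34+ cells (1.15 ± 0.12, limma adjusted p 3.96e-06), the only one of the 10 genes raised at that step, and fell 2.52-fold into CD43+ cells (-1.31 ± 0.12, limma adjusted p 2.61e-06).

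TEAD2 was the TEAD gene with the highest mean level in H1, CD31+CD34+ and CD43+ cells. It was measured at 45.8, 50.6 and 49.7 FPKM in H1, 43.7, 58.4 and 50.5 in APLNR+, 64.4, 93.6 and 79.1 in CD31+CD34+ and 28.8, 43.0 and 31.4 in CD43+ libraries. H1 and APLNR+ libraries overlapped (log2 change 0.05 ± 0.17, limma adjusted p 0.812), and the difference of 0.62 ± 0.17 between CD31+CD34+ and APLNR+ cells (limma adjusted p 0.00507) was under the minimum. The fall into CD43+ cells was called (-1.18 ± 0.17, limma adjusted p 8.26e-05). TEAD3 was the lowest of the family, with means of 4.73 ± 0.495, 9.24 ± 0.722, 8.35 ± 0.933 and 1.59 ± 0.145 FPKM in H1, APLNR+, CD31+CD34+ and CD43+ cells (SD, n = 3). Its APLNR+ and CD31+CD34+ libraries overlapped, and its 5.26-fold lower mean in CD43+ than in CD31+CD34+ cells gave a log2 change of -1.85 ± 0.11 (limma adjusted p 3.72e-08).

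**Figure D1:**
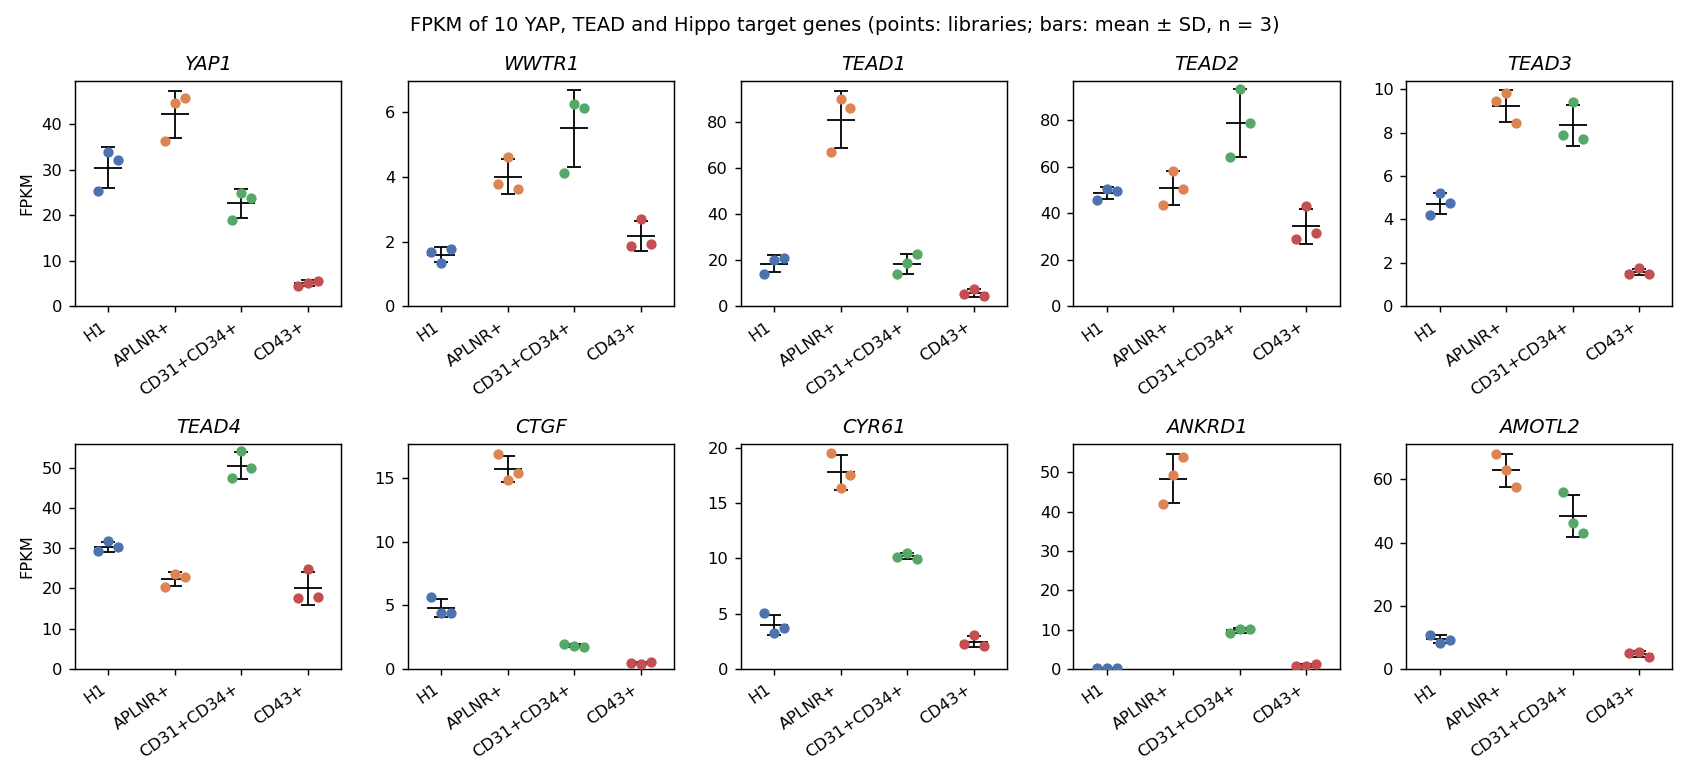
FPKM of each of the 10 genes (y axes from 0, one panel a gene) by population (x axes); points are single libraries and bars the mean ± SD of 3. By mean, APLNR+ cells are highest for 7 genes and CD31+CD34+ cells for WWTR1, TEAD2 and TEAD4, with APLNR+ and CD31+CD34+ libraries overlapping for WWTR1 and TEAD3, and CD43+ cells are lowest for 8 genes.

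The makeup of the TEAD pool was then read within each library, as shares that need no scaling between libraries. The summed FPKM of TEAD1 to TEAD4, which does depend on scaling, averaged 102 ± 7.74 for H1, 163 ± 21.1 for APLNR+, 156 ± 21.1 for CD31+CD34+ and 61.7 ± 13.2 for CD43+ cells (SD, n = 3). TEAD1 held 15.1% to 19.7% of this sum in H1 libraries, 47.6% to 51.3% in APLNR+, 10.5% to 14.3% in CD31+CD34+ and 7.83% to 10.1% in CD43+ libraries. The APLNR+ libraries were thus apart in the share of TEAD1 by more than the spread within any group. TEAD2 held a share of 47.7 ± 1.16% in H1 and 31.1 ± 1.02% in APLNR+ libraries, and 50.3 ± 2.66% and 55.7 ± 1.60% in CD31+CD34+ and CD43+ libraries. The TEAD4 share was 29.8 ± 1.37%, 13.7 ± 0.739%, 32.5 ± 2.56% and 32.5 ± 0.505% in the same order, and that of TEAD3 4.62 ± 0.182%, 5.73 ± 0.905%, 5.37 ± 0.537% and 2.61 ± 0.290%. The ratio of TEAD1 to TEAD4 levels, 0.603 ± 0.107 in H1, was 3.63 ± 0.290 in APLNR+ cells and 0.366 ± 0.0817 and 0.282 ± 0.0347 in CD31+CD34+ and CD43+ cells. The sum of YAP1 and WWTR1 levels over that of the TEAD genes was 0.313 ± 0.0201 for H1, 0.284 ± 0.0120 for APLNR+, 0.180 ± 0.00823 for CD31+CD34+ and 0.119 ± 0.0177 for CD43+ cells. H1 and APLNR+ libraries overlapped in this last ratio, and the 2 later stages lay below both and apart from each other.

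**Figure D2:**
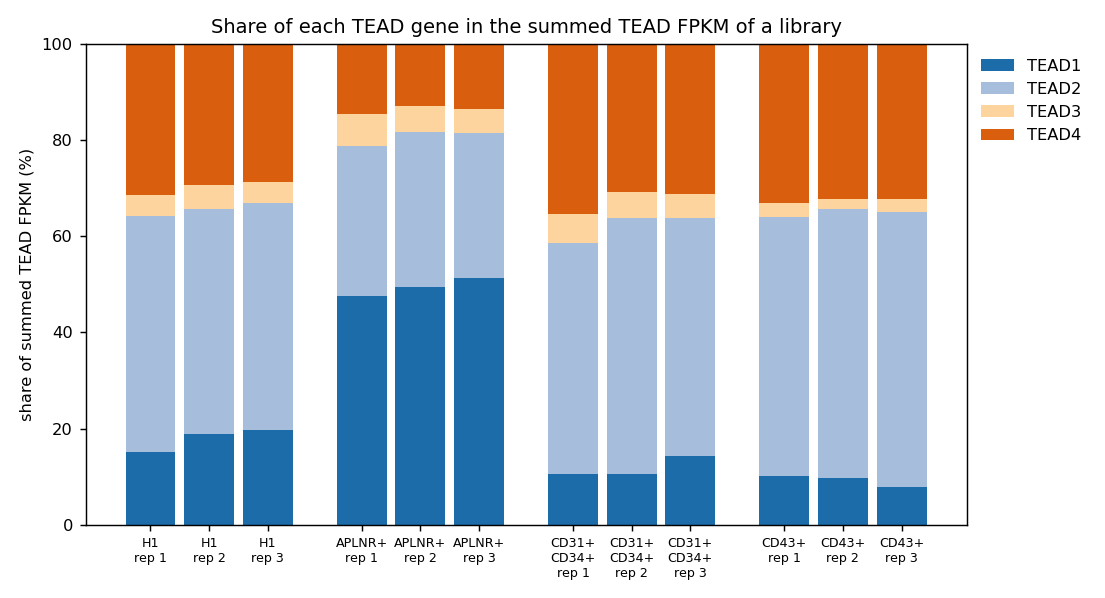
Share of TEAD1, TEAD2, TEAD3 and TEAD4 in the summed TEAD FPKM of each library (y axis, percent); each bar is 1 of the 12 libraries and the 4 colours are the 4 genes. TEAD1 takes 47.6% to 51.3% in the APLNR+ libraries and at most 19.7% in the others.

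TEAD factors bind a short element whose core is commonly written GGAATG. The RefSeq start tables (GRCh38.p14) held starts for 7 of the 10 genes, in 10 windows of the 250 bases before a start; TEAD1, TEAD4 and CYR61 had no entry. GGAATG or its reverse complement CATTCC stood at least once in 11.9% of all 35116 windows of that length, at least 2 times in 0.94% and at least 3 times in 0.0826%. CTGF (listed there as CCN2) held 3 copies, ending 164, 99 and 90 bases before its start, and ANKRD1 held 2, ending 215 and 123 bases before its start. YAP1 held 1 copy and the first of 2 AMOTL2 starts held 1 on the other strand, and no copy was found in the windows of WWTR1, TEAD2 and TEAD3 or at the second AMOTL2 start. The AP-1 word TGACTCA (reverse complement TGAGTCA), which can overlap the TEAD word at a shared TG or CA, was in 4.2% of all windows and in 0 of these 10. These words are a description of the sequence and not of binding. The windows of the genes with several copies are shown whole, and 30 bases around the copy for the other 2, all 5′ to 3′ on the gene's strand with the 6-base word in capitals. CTGF lies on the minus strand (chr6:131951373-131951622), as do ANKRD1 (chr10:90921088-90921337) and AMOTL2 (chr3:134374499-134374528), and YAP1 lies on the plus strand (chr11:102110273-102110302). Each stretch lies before the start it was taken from, and that of AMOTL2 lies downstream of the second AMOTL2 start, within the region transcribed from there.
CTGF: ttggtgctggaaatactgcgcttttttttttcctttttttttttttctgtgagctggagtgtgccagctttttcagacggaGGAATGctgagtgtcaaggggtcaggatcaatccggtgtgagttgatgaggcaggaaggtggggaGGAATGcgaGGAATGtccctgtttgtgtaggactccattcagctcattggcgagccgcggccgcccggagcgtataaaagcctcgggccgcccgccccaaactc
ANKRD1: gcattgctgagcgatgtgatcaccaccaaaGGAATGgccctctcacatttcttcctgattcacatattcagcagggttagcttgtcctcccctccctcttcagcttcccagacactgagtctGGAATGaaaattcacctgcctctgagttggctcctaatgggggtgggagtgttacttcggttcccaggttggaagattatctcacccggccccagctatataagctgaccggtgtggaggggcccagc
YAP1: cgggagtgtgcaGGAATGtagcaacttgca
AMOTL2: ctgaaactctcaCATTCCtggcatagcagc

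**Figure D3:**
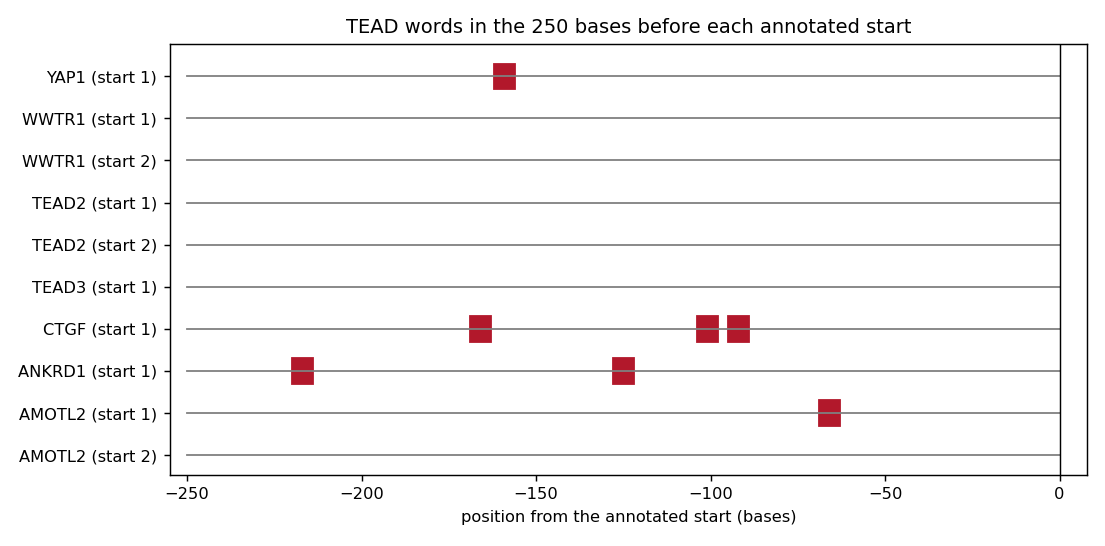
Positions of the word GGAATG, on either strand, in the 250 bases before each annotated start of 7 genes (x axis, bases before the start); grey lines are the windows and red marks the words. CTGF shows 3 marks, ANKRD1 2, YAP1 and the first AMOTL2 start 1 each.

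The target genes were then compared. ANKRD1, whose window holds 2 copies of the word, was near absent in H1 cells at 0.234, 0.115 and 0.125 FPKM and stood at 41.9, 49.4 and 54.1 in APLNR+, 9.02, 10.2 and 10.1 in CD31+CD34+ and 0.624, 0.764 and 1.16 in CD43+ libraries. No 2 populations overlapped. The mean in APLNR+ cells was 306-fold that of H1 cells, a ratio that rests on low H1 values, and the log2 change was 5.41 ± 0.13 (limma adjusted p 1.32e-11). ANKRD1 then fell by 2.19 ± 0.13 on the log2 scale into CD31+CD34+ cells (limma adjusted p 2.13e-08) and by a further 2.55 ± 0.13 into CD43+ cells (limma adjusted p 1.08e-08), 4.95-fold and 11.5-fold in the means. The CD43+ libraries remained above those of H1, by a log2 change of 0.67 (limma adjusted p 0.000422) that was under the 2-fold minimum. With a pseudocount of 0.1 it was 1.87 and was called, and the means differed 5.38-fold.

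CTGF, with 3 copies of the word, was measured at 5.65, 4.42 and 4.40 FPKM in H1, 16.9, 14.9 and 15.4 in APLNR+, 1.92, 1.80 and 1.69 in CD31+CD34+ and 0.467, 0.396 and 0.531 in CD43+ libraries. Again no 2 populations overlapped, and only APLNR+ libraries were above H1. CTGF rose 3.26-fold into APLNR+ cells (log2 change 1.53 ± 0.10, limma adjusted p 1.2e-07) and fell 8.73-fold into CD31+CD34+ cells (-2.58 ± 0.10, limma adjusted p 1.06e-09). The next difference, 3.88-fold lower in the means, gave a log2 change of -0.94 ± 0.10 (limma adjusted p 1.13e-05), under the minimum with 1 FPKM added to each value. With a pseudocount of 0.1 it was -1.76 and was called. CTGF was the one target lower in CD31+CD34+ than in H1 cells (-1.05 ± 0.10, limma adjusted p 1.36e-06), a call lost without H1 replicate 1 (-0.95) and, at changes from -0.99 to -0.89, under each of the 3 other scalings.

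CYR61 encodes a close relative of CTGF, but kept a higher level at the CD31+CD34+ stage. Its libraries read 5.02, 3.23 and 3.66 FPKM in H1, 19.5, 16.4 and 17.6 in APLNR+, 10.1, 10.5 and 9.93 in CD31+CD34+ and 2.29, 3.03 and 2.06 in CD43+ cells. CD31+CD34+ libraries lay between those of APLNR+ and H1 cells, and CD43+ libraries were the lowest. The rise into APLNR+ cells was called (1.93 ± 0.14, limma adjusted p 2.21e-07), the 1.75-fold lower mean in CD31+CD34+ cells was not (-0.75 ± 0.14, limma adjusted p 0.000429), and the fall into CD43+ cells was (-1.70 ± 0.14, limma adjusted p 8.34e-07). The within-library ratio of CYR61 to CTGF levels was 0.817 ± 0.0794 for H1 and 1.13 ± 0.0290 for APLNR+ cells, then 5.66 ± 0.338 for CD31+CD34+ and 5.49 ± 1.95 for CD43+ cells (SD, n = 3). Libraries of the later 2 stages overlapped in this ratio and lay above all earlier ones.

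AMOTL2, the junctional target, behaved most like CYR61. It was at 10.8, 8.14 and 9.24 FPKM in H1, 67.9, 63.1 and 57.6 in APLNR+, 55.9, 46.1 and 43.1 in CD31+CD34+ and 5.17, 5.45 and 3.65 in CD43+ libraries. The first and last populations were low and both middle ones high, with all CD31+CD34+ libraries under those of APLNR+ cells. AMOTL2 rose 6.69-fold into APLNR+ cells (2.62 ± 0.15, limma adjusted p 1.98e-08), was lower by an uncalled 0.38 ± 0.15 on the log2 scale in CD31+CD34+ cells (limma adjusted p 0.0347), and fell 10.2-fold into CD43+ cells (-3.11 ± 0.15, limma adjusted p 6.73e-09). Set against CTGF, AMOTL2 levels stood at a ratio of 1.84 to 2.10 in H1 libraries, 3.74 to 4.24 in APLNR+, 25.6 to 29.1 in CD31+CD34+ and 6.88 to 13.8 in CD43+ libraries, with no overlap between the 4. The ratio of ANKRD1 to AMOTL2 levels was 0.0164 ± 0.00453, 0.780 ± 0.161, 0.206 ± 0.0393 and 0.193 ± 0.109 in the same order.

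Counted together, 5 of the 10 genes (TEAD1 and all 4 targets) were raised in APLNR+ against H1 cells and 0 lowered, where 8.3% of the 14840 genes tested were raised and 7.62% lowered. At this step 1232 genes in all were raised and 1131 lowered, a split that became 1528 and 790 when the libraries were set to the same sum without small RNA and mitochondrial genes, with 7 of the 10 raised. From APLNR+ to CD31+CD34+ cells 1 of the 10 was raised (TEAD4) and 3 were lowered (TEAD1, CTGF and ANKRD1), against 12.5% and 17.1% of all genes. At the step into CD43+ cells 0 were raised and 9 lowered, all but CTGF, against 5.58% and 8.79% of all genes. The median log2 change of the 10 genes was 1.24, -0.56 and -1.62 at these steps, beside -0.12, -0.01 and -0.00 for all genes tested. Libraries of the populations compared did not overlap for 9, 8 and 10 of the 10 genes at the 3 steps, and for 66%, 75.7% and 58% of all genes. An exact two-sided permutation test of 3 against 3 libraries gave 0.1 for each gene without overlap, the smallest p that it can give.

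Populations further apart were compared next. From H1 to CD43+ cells 0 of the 10 genes were raised and 4 lowered (YAP1, TEAD1, TEAD3 and CTGF), where 14.6% of all genes were raised and 22.5% lowered. TEAD3 lost its call with quantile normalization (-0.97), and ANKRD1 was called as raised with a pseudocount of 0.1. YAP1 had a 6.01-fold higher mean in H1 than in CD43+ cells (log2 change -2.37 ± 0.14, limma adjusted p 1.55e-08), and WWTR1 showed no called difference (0.28 ± 0.16, limma adjusted p 0.118). From H1 to CD31+CD34+ cells 4 were raised (WWTR1, CYR61, ANKRD1 and AMOTL2) and 1 lowered (CTGF), against 16.9% and 23.2% of all genes. All genes here split into 2514 raised and 3441 lowered, and into 3003 and 2914 with the equal sums named above. From APLNR+ to CD43+ cells 0 were raised and 7 lowered, against 14.1% and 19.4% of all genes, and TEAD2, TEAD4 and WWTR1 were the 3 not called. Median log2 changes of the 10 genes in these 3 comparisons were -0.73, 0.71 and -2.64, beside -0.10, -0.07 and -0.07 for all genes. These comparisons share libraries with the steps above and are not independent of them.

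**Figure D4:**
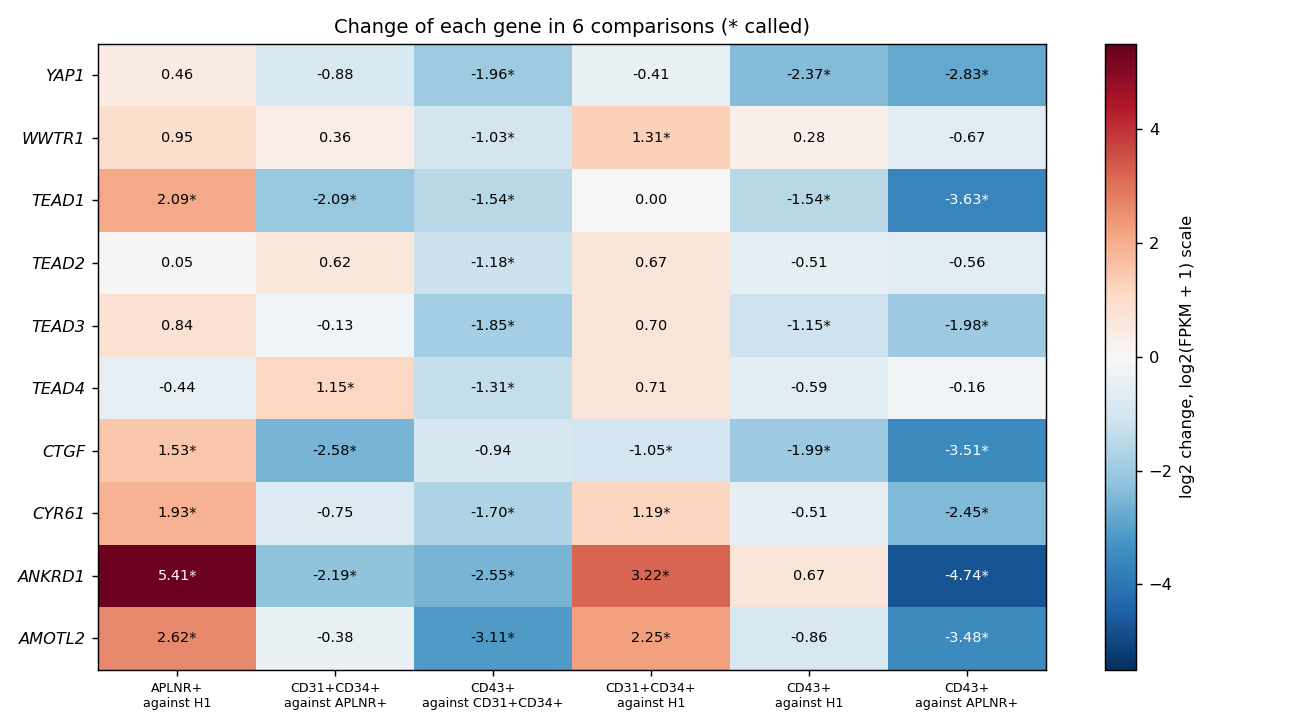
Change of each of the 10 genes (rows) in 6 comparisons of populations (columns) as log2 difference on the log2(FPKM + 1) scale, with red for higher and blue for lower in the population named first; an asterisk marks a call by limma (adjusted p under 0.05 and at least 2-fold). The column of CD43+ against CD31+CD34+ holds 9 calls, all lower.

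The other genes of the pathway were taken from lists written by function. Their counts stand beside the shares of all genes given above, 8.3% raised and 7.62% lowered at the first step, 12.5% and 17.1% at the second and 5.58% and 8.79% at the third. Of 13 genes of the kinase cascade, all tested, 0 were raised and 1 lowered at the first step (H1 to APLNR+), 1 raised and 2 lowered at the second, and 2 raised and 0 lowered at the third. Their median log2 changes were 0.04, -0.40 and 0.14. STK38L, a kinase related to LATS, fell at both early steps, with means of 45.1 ± 2.63, 19.6 ± 2.97 and 1.61 ± 0.191 FPKM for H1, APLNR+ and CD31+CD34+ cells (SD, n = 3) and log2 changes of -1.17 and -2.97 (limma adjusted p 7.75e-06 and 1.75e-09). TAOK2, a kinase that can activate the MST kinases, rose from 10.4 ± 1.89 to 46.2 ± 3.63 FPKM at the second step (log2 change 2.06, limma adjusted p 6.78e-08), where STK3 fell from 8.20 ± 1.90 to 3.16 ± 0.203 FPKM (-1.13, limma adjusted p 8.36e-06). STK4 and TAOK3 rose into CD43+ cells by 1.01 and 1.37 on the log2 scale (limma adjusted p 0.000258 and 5.69e-06). LATS1 and LATS2, the kinases that act on YAP itself, were called at none of these steps. LATS1 had means from 2.43 to 3.58 FPKM. LATS2 had means of 2.44, 4.83, 4.52 and 2.42 FPKM from H1 to CD43+ cells. Its log2 changes were 0.74 from H1 to APLNR+ cells and -0.70 from CD31+CD34+ to CD43+ cells (limma adjusted p 0.00109 and 0.00177). Both were under the 2-fold minimum, but the libraries compared did not overlap.

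Of 16 upstream and adaptor genes, 4 were raised and 1 lowered at the first step, 3 raised and 1 lowered at the second, and 1 raised and 6 lowered at the third, with medians of 0.36, 0.21 and -0.74. DCHS1, an atypical cadherin, rose at both early steps and fell at the last, with means of 1.54 ± 0.0937, 7.63 ± 0.596, 45.9 ± 5.12 and 14.5 ± 1.75 FPKM from H1 to CD43+ cells, and FAT4, its binding partner, rose by 1.35 on the log2 scale at the second step (limma adjusted p 8.51e-07). AMOT, a relative of AMOTL2, rose from 1.16 ± 0.291 to 9.87 ± 1.72 FPKM at that step and fell to 1.78 ± 0.681 in CD43+ cells, log2 changes of 2.33 and -1.98 (limma adjusted p 3.2e-07 and 2.58e-06). WTIP and AJUBA, LIM proteins that bind LATS, fell at the step into CD43+ cells (log2 changes -2.02 and -1.77, limma adjusted p 1.67e-07 and 8.27e-08), while RASSF1 rose from 7.61 ± 0.964 to 26.6 ± 3.91 FPKM (1.68, limma adjusted p 5.2e-07). At the first step FRMD6 rose by 1.47 (limma adjusted p 8.71e-08) and WWC1, the gene of the adaptor KIBRA, fell by 1.32 (limma adjusted p 2.79e-06). Of the 4 VGLL genes, which encode other TEAD cofactors, VGLL4 alone passed the filter on low values. It was called at none of these steps, with means of 12.6 ± 0.127, 12.5 ± 0.338, 22.6 ± 0.832 and 25.7 ± 0.575 FPKM from H1 to CD43+ cells. Its log2 change at the second step was 0.80 (limma adjusted p 7.66e-07), with every CD31+CD34+ library above every APLNR+ library. From H1 to CD43+ cells the change of VGLL4 was 0.97 (limma adjusted p 8.9e-08), and both changes were under the 2-fold minimum.

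Other genes described as YAP and TAZ targets moved in both directions. Of 17 on the list 15 were tested, and 6 were raised and 0 lowered at the first step, 4 raised and 4 lowered at the second, and 2 raised and 5 lowered at the third, with medians of 0.77, -0.26 and -0.71. MYOF, a membrane repair protein, rose at the first step from 0.328 ± 0.0325 to 8.24 ± 0.610 FPKM (log2 change 2.80, limma adjusted p 2.66e-09) and then fell by 1.29 and 1.14 (limma adjusted p 1.76e-06 and 1.06e-05). GADD45A, a stress response gene, and PTPN14, a phosphatase that binds YAP, rose at the first step by 2.71 and 1.64 (limma adjusted p 7.5e-10 and 1.21e-07) and fell at the second by 1.20 and 1.10. CCDC80, a secreted matrix protein, instead rose at the second step, from 3.46 ± 0.148 to 49.3 ± 4.27 FPKM (3.49, limma adjusted p 8.73e-11), and fell to 7.39 ± 0.830 in CD43+ cells. RBMS3, an RNA-binding protein, rose by 1.50 (limma adjusted p 0.000177) with CCDC80. AXL, a receptor tyrosine kinase, fell from 19.5 ± 1.08 to 3.83 ± 0.366 FPKM at the third step (-2.09, limma adjusted p 4.43e-09), where NT5E, the gene of CD73, rose from 0.392 ± 0.357 to 3.23 ± 0.843 FPKM (1.61, limma adjusted p 1.57e-05).

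The list of 11 actin and SRF genes holds the factor SRF itself and its co-activators, such as MYOCD, beside genes of actin-related proteins. At the first step 4 were raised and 0 lowered, and at the second 2 raised and 1 lowered. At the third step 1 was raised and 5 lowered. The medians at the 3 steps were 0.53, -0.19 and -0.77. TAGLN, an actin-binding smooth muscle protein, rose at the first step from 76.4 ± 15.7 to 466 ± 69.7 FPKM and fell at the third from 274 ± 29.4 to 15.7 ± 1.57 FPKM, log2 changes of 2.60 and -4.04 (limma adjusted p 3.09e-08 and 1.14e-09). MYOCD, an SRF co-activator, rose by 2.54 at the first step (limma adjusted p 4.85e-10) and fell by 2.18 at the third (limma adjusted p 3.1e-09). MYL9, a myosin light chain, rose by 1.36 at the first step (limma adjusted p 3.95e-07), and CNN1, a calponin, fell by 2.39 at the third (limma adjusted p 1.12e-09). ACTA2, smooth muscle actin, ran the other way from these genes at the later steps, with means of 1.53 ± 0.126, 13.3 ± 3.17 and 34.8 ± 6.93 FPKM for APLNR+, CD31+CD34+ and CD43+ cells and with rises of 2.48 and 1.32 (limma adjusted p 7.73e-08 and 3.51e-05). TPM1 fell by 1.13 and MKL1 rose by 1.02 at the second step (limma adjusted p 1.25e-07 and 1.08e-06).

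**Figure D5:**
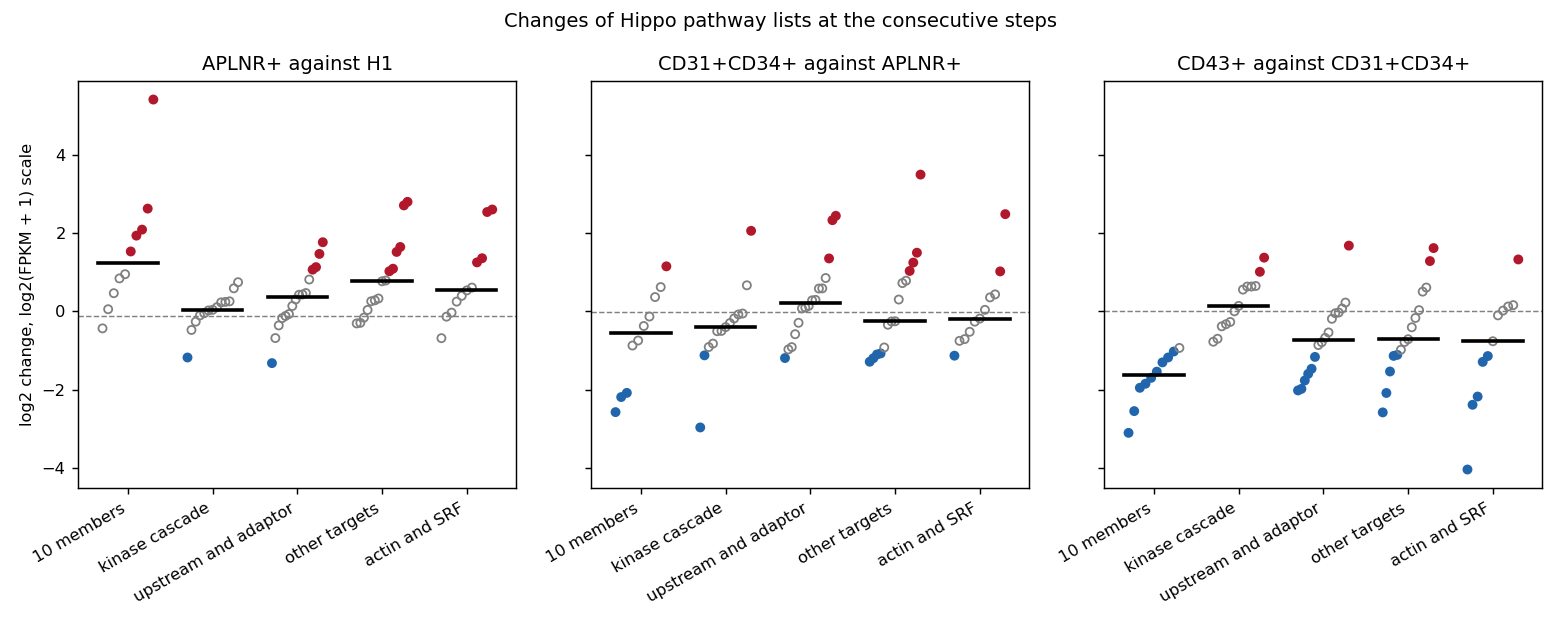
Log2 change on the log2(FPKM + 1) scale (y axis) of each tested gene of the 10 genes and of 4 pathway lists (x axis) at the 3 consecutive steps; filled points are called (red higher, blue lower), open points are not, bars are list medians and the dashed line is the median of all genes tested. At the step from CD31+CD34+ to CD43+ cells the 10 genes have a median of -1.62 and the kinase cascade a median of 0.14.

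Likeness of course was described by Pearson's r of log2(FPKM + 1) over the 12 libraries, which share 4 populations, so that r mainly reads the pattern of 4 means. Among the 10 genes the pairs most alike were CYR61 and AMOTL2 (r = 0.977), CYR61 and ANKRD1 (0.938), TEAD3 and AMOTL2 (0.932) and TEAD1 and CTGF (0.929). TEAD2 and TEAD4 were alike at 0.899, while TEAD1 and TEAD4 were at 0.0503, YAP1 and WWTR1 at 0.311 and CTGF and CYR61 at 0.734. The lowest value, -0.139, was that of TEAD4 and CTGF. Among 10481 tested genes with a mean of at least 5 FPKM in a population, the 3 most like YAP1 were TMTC1 (0.997), PDE9A (0.994) and MYO10 (0.992), and those most like WWTR1 were CC2D1B (0.970), C8orf58 (0.968) and FMOD (0.968). TEAD1 was nearest to NPFFR2, FAM234B and GNAL (0.987, 0.985 and 0.985), TEAD2 to SEZ6L2, CEP89 and TUBA1C (0.975, 0.973 and 0.972), TEAD3 to CNN1, RASL12 and SLC6A6 (0.990, 0.985 and 0.985) and TEAD4 to TUBA1B, EFNA4 and TAP1 (0.988, 0.981 and 0.980). Of the targets, CTGF was nearest to GAL, SOWAHC and SOCS2 (0.998, 0.997 and 0.991) and CYR61 to SNX25, PLBD1 and IGSF3 (0.987, 0.986 and 0.985). ANKRD1 was nearest to ANXA1, MYOF and GPR37 (0.997, 0.995 and 0.994), of which MYOF is itself on the list of other targets. AMOTL2 was nearest to MATN3, PDLIM3 and IGSF3 (0.994, 0.993 and 0.989).

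Some of the 10 genes share sequence or position with other genes, and the counting's use of strand is not given in the sources used here. By GENCODE 29, exons of an antisense or opposite-strand gene overlap those of WWTR1 (WWTR1-AS1, at most 0.806 FPKM in any library), CTGF (AL133346.1, at most 0.788 FPKM), TEAD2 (CD37, at most 1.00 FPKM) and YAP1 (an antisense gene listed at 0), so that reads at those exons cannot be told apart without strand. CD37 and WWTR1-AS1 stayed below the lowest TEAD2 and WWTR1 library, while the highest level of AL133346.1 in any library was above the CTGF level of the CD43+ libraries. On the same strand, exons of RPL39P5, a processed pseudogene (at most 0.149 FPKM), overlap those of AMOTL2. The share of transcript stretches of 50 bases also found in another gene was 2.22% for AMOTL2 and at most 0.451% for the other 9.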

How the data were processed

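RNA-seq was performed on 12 libraries in 4 groups of 3, with groups and replicate numbers taken from the sample titles. Libraries were prepared with an Illumina TruSeq kit from total RNA taken up in Trizol, and the methods name both BGI and Novogene without assigning libraries. What the authors deposited is 1 table in FPKM, with no counts and 1 column per library. Their processing notes list BWA, Bowtie, RSEM and hg19 without versions or roles; annotation, strand and any scaling between libraries are not given in the sources used here. The recipes of the labels and of the methods give the doses of activin A and BMP4 the other way round, so no dose is printed.

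Of 58366 lines below the header, 1 of text was left out, and 345 symbols stood on more lines than 1, of which that with the highest mean entered (for SAV1, 1 of 2). The other values were taken as deposited. Genes reaching 1 FPKM in at least 3 libraries entered (14840), and log2(FPKM + 1) of all 12 libraries was modelled with limma 3.58.1 under R 4.3.3 (lmFit, contrasts.fit, eBayes with trend, no covariate), with Benjamini-Hochberg adjustment over all tested genes of each comparison. A gene was called at 2-fold or more with an adjusted p under 0.05. The FPKM scale carries no read depth, so 3 libraries per group limit the precision. Tested on simulated data for APLNR+ against H1 with 14840 genes, 198 of 200 changed genes were called, with 1 false call and 0 of wrong sign. The planted changes were of 2 or 3 on the log2 scale, up or down, so none lay close to the 2-fold minimum. These counts therefore give no rate for genes close to it. Named genes were the 10 genes, the markers and the called genes with the 3 largest changes of each pathway list at each step. The rule also took the 3 genes nearest to each of the 10 by correlation. LATS1, LATS2, VGLL4 and RASSF1 fall outside this rule and were named after their values were seen. The genes and lists were chosen with earlier results of these data known. Promoter windows came from RefSeq (GRCh38.p14) and overlaps from GENCODE 29, neither of the build of the files. Alternatives were another pseudocount, other filters and scalings, the replicate number as a block, pairs of groups alone, no trend, no minimum change, replicates 2 and 3 alone, and leaving out each library. Python 3.11.15 with pandas 2.3.3, numpy 2.4.6 and matplotlib 3.10.9 was used for the rest.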

Additional observations from a re-analysis of the deposited data

How the results depend on the processing

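The 60 log2 changes of the 10 genes were recomputed in up to 22 alternative settings, and 50 kept their direction and side of the threshold in all. Of 1313 values, 10 became called, 10 lost the call and 4 changed sign. With no minimum change, 9 of 10 genes (not 5) were called for APLNR+ against H1, 8 (not 4) for CD31+CD34+ against APLNR+, 9 (not 4) for CD43+ against H1 and 9 (not 5) for CD31+CD34+ against H1. Leaving out each library in turn gave 5 to 6, 4 and 8 to 9 called genes at the consecutive steps, 4 for CD43+ against H1, 4 to 5 for CD31+CD34+ against H1 and 7 for CD43+ against APLNR+. The sign changes were in uncalled values: TEAD1 in CD31+CD34+ against H1 cells, at -0.17 without H1 replicate 1 and -0.015 and -0.15 without CD31+CD34+ replicates 2 and 3, ranged from -0.17 to 0.17 over the libraries left out, and TEAD2 in APLNR+ against H1 cells from -0.050 (without APLNR+ replicate 2) to 0.15 (without APLNR+ replicate 1).

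WWTR1 in APLNR+ against H1 cells was called with a pseudocount of 0.1 (1.28), upper-quartile scaling (1.01), equal sums without small RNA and mitochondrial genes (1.10), replicates 2 and 3 alone (1.00) and without APLNR+ replicate 3 (1.00). TEAD3 there was called with equal sums (1.03). CTGF in CD43+ against CD31+CD34+ cells was called with equal sums (-1.01), YAP1 in CD31+CD34+ against APLNR+ cells with quantile normalization (-1.02) and ANKRD1 in CD43+ against H1 cells with a pseudocount of 0.1 (1.87). TEAD3 in CD43+ against H1 cells lost its call with quantile normalization (-0.97). CTGF in CD31+CD34+ against H1 cells lost its call with upper-quartile scaling (-0.99), quantile normalization (-0.89), equal sums (-0.90) and replicates 2 and 3 alone (-0.98). The causes were not tested. A mean of at least 5 FPKM removed WWTR1 from the test.

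The replicate number as a block left the called genes at 5, 4 and 9 at the consecutive steps and at 4, 5 and 7 in the other comparisons. Deviations of libraries with the same number correlated from -0.0214 to 0.429 over 18 pairs, and 6 of 12 libraries correlated best with their own number. Those of different number correlated from -0.404 to 0.289 over 36 pairs, so the 2 ranges overlapped. The 6 pairs of number 1 were all above 0.1, at 0.196 to 0.429, and all 4 replicate 1 libraries correlated best with their own number, while pairs of number 2 ran from 0.0254 to 0.247 and those of number 3 from -0.0214 to 0.269. Since not every pair was above 0.1, the numbers were not taken as pairs. Over all genes, the counts called into APLNR+ and into CD43+ cells were 2363 and 2133 of 14840 tested. Of as many genes, 3632 and 3605 were called with a pseudocount of 0.1 and 8594 and 7961 with no minimum change. A mean of at least 5 FPKM gave 1193 and 1313, but of 8622 genes tested, so these counts cannot be set directly against the others. The same filter, again with 8622 genes tested in place of 14840, gave 3309 (not 5501) for CD43+ against H1. It gave 3752 (not 5955) for CD31+CD34+ against H1 and 3080 (not 4982) for CD43+ against APLNR+. With no minimum change and all 14840 genes, 10948 (not 4400) were called for CD31+CD34+ against APLNR+. The counts were then 11076 for CD43+ against H1, 11473 for CD31+CD34+ against H1 and 10995 for CD43+ against APLNR+. Equal sums moved the median log2 change of all genes by over 0.1 in 3 comparisons: from -0.12 to 0.04 for APLNR+ against H1, from -0.07 to 0.07 for CD31+CD34+ against H1 and from -0.07 to -0.19 for CD43+ against APLNR+.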
